A study of Mus musculus with 6 samples.

Results

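The genes described here encode the transforming growth factor beta (TGF beta), activin and myostatin axis. They are the ligand genes Tgfb1, Tgfb2, Tgfb3, Inhba and Mstn, the antagonist gene Fst, the receptor genes Tgfbr1 and Tgfbr2, and the signal transducer genes Smad3 and Smad7. These 10 were chosen by name from the 37991 genes counted, and each symbol matched 1 gene. Read counts were measured in 6 polyA RNA libraries from cytoplasmic RNA of C2C12 cells, an established myoblast line labelled as strain C3H that fuses into myotubes when serum is lowered. All cells carried a lentiviral (LV) short hairpin. In the control groups it was sh-Luc, which targets luciferase, and in the knockdown groups sh-Kap1, which targets Kap1 (Trim28), a chromatin corepressor.

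Proliferating myoblasts (MB) were kept in medium with 10% fetal calf serum. Differentiating cells (MT) were taken after 48 hours in 2% horse serum with insulin, transferrin and selenium. There were 2 libraries each of MB control (MB_shCtrl) and MB knockdown (MB_shKap1), and 1 library each of MT control (MT_shCtrl) and MT knockdown (MT_shKap1). The labels do not state whether the 2 MB replicates are separate cultures, so the spread between libraries that the p-values rest on may be technical. Levels are given as CPM, counts scaled to a common library size (TMM), and changes are given on the log2 scale.

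TGF beta, activin and myostatin are secreted dimers that bind a pair of type II and type I receptor kinases, which then phosphorylate SMAD2 and SMAD3 so that these enter the nucleus with SMAD4. SMAD7 is made in response and blocks the type I receptor. In muscle, TGF beta and myostatin restrain the differentiation of myoblasts, and follistatin, the Fst product, binds activin and myostatin and keeps them from their receptors.

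Totals ran from 36247530 to 49839994 counts per library, and Trim28 was at 102 to 150 CPM in MB knockdown against 428 and 596 in MB control, and at 114 against 394 in MT. The deposited files of MB replicate 2, in both arms, lack a mark that the names of the other 4 files carry. Its meaning is not stated in the labels, and it is treated as a batch. The myogenic factor gene Myog was at 1.28 and 0.676 CPM in MB replicate 1 (control and knockdown), at 33.8 and 14.3 in replicate 2, and at 818 and 28.2 in MT. Of the 6 myoblast markers, 5 were at or above 1 CPM in every library, while Msc was at 0.202 CPM or less. The summed level of all 6 was 558 and 1027 CPM in MB control, 428 and 1158 in MB knockdown, then 2516 for MT control and 928 for MT knockdown. Of 4 macrophage, 4 endothelial and 4 epithelial markers, Adgre1 and Tie1 had no count in any library, and the endothelial and epithelial sums stayed at or under 0.496 CPM. The macrophage marker Cd68 was at 1.67 to 3.77 CPM over the libraries, and Csf1r was at or under 0.871.

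Each comparison was fitted with and without a term for this batch over all 16472 genes that passed the low-count filter. Of the 10 genes, 9 passed, and Mstn did not. Without the batch term edgeR called 0 genes of the whole table in each of the 5 comparisons (0%), with 454 to 4174 genes at an unadjusted p under 0.05. DESeq2 without the term called 52 genes for the knockdown in MB (0.316%), 368 in MT (2.23%), 2384 for control differentiation (14.5%), 843 for knockdown differentiation (5.12%) and 166 for the interaction (1.01%). So "rose" and "fell" below refer to edgeR calls with the batch term at an adjusted p under 0.05. None of them was made in the same filtered TMM fit without the term. Both MT libraries carry the mark, so with the batch term the differentiation changes rest mainly on the marked MB libraries, and values against each MB library are given beside them. With 1 library per MT group, every MT comparison takes the variance of the lone libraries from the MB libraries. With the batch term, the shared gap between the MB replicates goes into that term. The spread that remains is the disagreement between the 2 MB pairs, with 1 residual degree of freedom per gene (2 without the term). The common biological coefficient of variation was 9.74% with the term and 32.9% without it. In bulk RNA, fewer cells of a kind and less RNA per cell cannot be told apart.

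Windows from the RefSeq promoter table (build GRCm38.p6) were used for 7 of the 10 genes. Windows on a chromosome left out of this step were not counted, so the table may hold more. The 250 bases before the annotated start, written 5′ to 3′ on the gene's own strand, are shown for 4 genes of differing behaviour, namely Tgfb1, which was nearly level across libraries, Tgfb2 and Inhba, which varied widely, and Mstn, which was almost uncounted. Capitals mark GGGCGG boxes (either strand), TATAAA boxes (either strand) and E-boxes, the CANNTG motif of basic helix-loop-helix factors.
Tgfb1, chr7:25686752-25687001 (plus strand): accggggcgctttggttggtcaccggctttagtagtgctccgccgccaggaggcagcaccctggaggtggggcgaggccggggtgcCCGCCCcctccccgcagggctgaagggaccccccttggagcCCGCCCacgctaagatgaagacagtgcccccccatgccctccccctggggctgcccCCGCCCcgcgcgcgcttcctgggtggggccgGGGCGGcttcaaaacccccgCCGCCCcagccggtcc
Tgfb2, chr1:186705990-186706239 (minus strand): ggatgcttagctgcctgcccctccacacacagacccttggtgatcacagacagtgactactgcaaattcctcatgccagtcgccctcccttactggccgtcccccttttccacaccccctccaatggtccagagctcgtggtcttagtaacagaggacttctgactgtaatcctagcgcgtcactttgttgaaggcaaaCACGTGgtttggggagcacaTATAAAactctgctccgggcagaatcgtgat
Inhba, chr13:16011601-16011850 (plus strand): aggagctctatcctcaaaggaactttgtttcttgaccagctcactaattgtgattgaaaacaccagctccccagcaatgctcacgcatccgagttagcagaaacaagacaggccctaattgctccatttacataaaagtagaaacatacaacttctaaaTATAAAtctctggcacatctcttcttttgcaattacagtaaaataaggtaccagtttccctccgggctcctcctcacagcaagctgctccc
Mstn, chr1:53061390-53061639 (plus strand): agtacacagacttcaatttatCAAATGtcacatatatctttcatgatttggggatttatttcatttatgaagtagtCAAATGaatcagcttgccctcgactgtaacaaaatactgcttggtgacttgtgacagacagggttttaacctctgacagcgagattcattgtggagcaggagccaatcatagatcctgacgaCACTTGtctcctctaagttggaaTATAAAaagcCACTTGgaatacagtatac
The Tgfb1 window had a GC content of 75.2% with 5 GGGCGG boxes, and no TATAAA or CANNTG match. In Tgfb2 the GC content was 53.6%, with a TATAAA box that starts 31 bases before the start and 1 E-box (CACGTG) at 51 bases. The Inhba window had 43.2% GC, a TATAAA box at 91 bases and no E-box. Mstn had 38.4% GC, a TATAAA box at 29 bases and 4 E-boxes, at 229, 174, 52 and 19 bases. Among 32851 windows of this length in the table, 66.2% held CANNTG, 32.7% held GGGCGG and 12.4% held TATAAA. A match describes letters and is not a bound site.

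The ligand gene Tgfb1, which encodes the most studied TGF beta, was among the steadiest of the 10. Its levels were 52.2 and 46.9 CPM in MB control, 42.9 and 43 in MB knockdown, with 52.8 for MT control and 36.1 for MT knockdown. The MB knockdown libraries lay below both MB control libraries, and the MT knockdown library was the lowest of all. In MT the gene fell with a log2 change of -0.55 (SE 0.137, edgeR adjusted p = 0.0195). In MB the change was -0.20 (SE 0.0963, edgeR adjusted p = 0.317), and for differentiation it was 0.05 in control cells (SE 0.126, edgeR adjusted p = 0.761) and -0.29 in knockdown cells (SE 0.129, edgeR adjusted p = 0.113). The MT call was lost with total library size in place of TMM (-0.41, edgeR adjusted p = 0.0538) and in DESeq2 with the batch term (-0.59, adjusted p = 0.104).

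Tgfb2, whose product needs the co-receptor betaglycan to bind its receptors well, stood at 20 and 38.1 CPM in MB control and at 28.7 and 50.5 in MB knockdown. It reached 106.9 CPM in MT control and 49.1 in MT knockdown. Replicate 2 was above replicate 1 in both MB groups, the knockdown library was above the control within each replicate pair, and in MT it was below. With the batch term the gene rose in MB knockdown by 0.46 (SE 0.0965, edgeR adjusted p = 0.0272; DESeq2 with the term, 0.193). It fell in MT knockdown (log2 change -1.12, SE 0.134, edgeR adjusted p = 0.000308). The within-pair log2 differences were 0.52 and 0.41 in MB, each smaller than the 0.93 and 0.81 by which replicate 2 exceeded replicate 1 in control and knockdown.

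During control differentiation Tgfb2 rose by 2.39 (SE 0.125, edgeR adjusted p = 2.98e-07). The MT control library stood 2.42 above the MB control library that carries the mark and 1.49 above the one that lacks it. In knockdown cells it rose by 0.80 (SE 0.125, edgeR adjusted p = 0.00106), which rests on the marked MB library. Against that library the difference was 0.77, and against the unmarked one it was -0.04.

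Tgfb3 encodes the third TGF beta isoform. It was at 48.1 and 52 CPM in MB control, 76.2 and 72.7 in MB knockdown, then 155 for MT control and 105 for MT knockdown. No MB knockdown library overlapped the MB controls, and both MT libraries lay above all MB libraries. It rose in MB knockdown by 0.57 (SE 0.0966, edgeR adjusted p = 0.00952). This was 0.66 and 0.48 within the pairs, and DESeq2 with the batch term called it as well (adjusted p = 0.0107). Without the batch term the value was also 0.57, with unadjusted p = 0.00981 and edgeR adjusted p = 1.

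In MT knockdown Tgfb3 fell with a log2 change of -0.56 (SE 0.135, edgeR adjusted p = 0.0162), which became -0.42 (edgeR adjusted p = 0.0508) with total library size. Tgfb3 rose by 1.64 in control differentiation (SE 0.125, edgeR adjusted p = 4.37e-06) and by 0.51 in knockdown differentiation (SE 0.125, edgeR adjusted p = 0.0112). Against the marked and unmarked libraries the differences were 1.69 and 1.58 in control and 0.47 and 0.53 in knockdown cells. For control differentiation DESeq2 without a batch term called it too (1.67, adjusted p = 3.54e-12), while edgeR without the term gave 0.0533 with the low-count filter and 0.0248 with no filter (1.62).

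**Figure D1:**
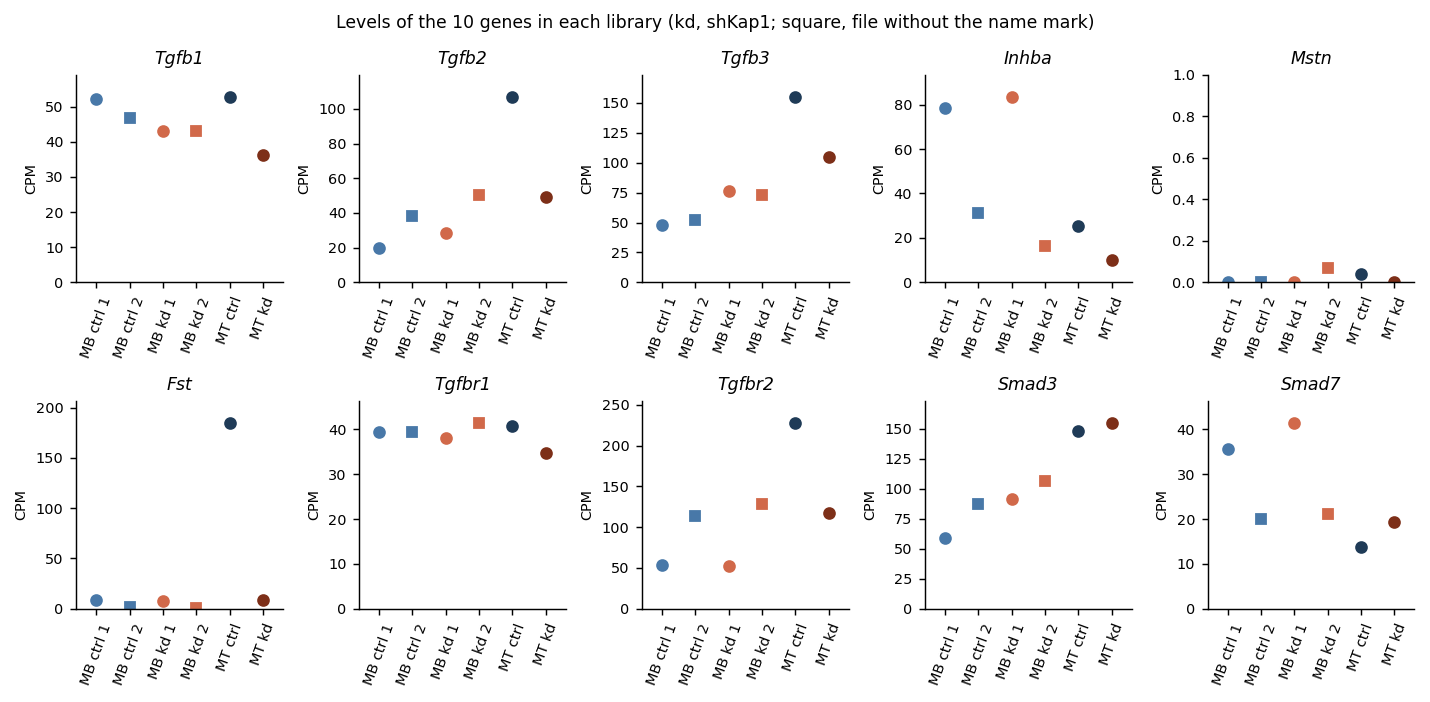
Level in CPM (vertical axis, linear from 0, own scale per gene) of each of the 10 genes in each of the 6 libraries (horizontal axis), 1 point per library, with squares for the files that lack the name mark. Fst stands at 185 CPM in MT control and at or below 9.12 elsewhere, Tgfbr1 lies between 34.8 and 41.4 throughout, and Mstn stays under 0.07.

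Inhba encodes the beta A subunit that pairs to form activin A. Its levels were 78.6 and 31 CPM in MB control, 83.5 and 16.6 in MB knockdown, with 25.3 for MT control and 9.97 for MT knockdown. Replicate 1 was far above replicate 2 in both MB groups, and MT knockdown was the lowest library. No change passed the threshold in edgeR. The log2 changes with the batch term were -0.38 in MB knockdown (SE 0.331, edgeR adjusted p = 0.686) and -1.34 in MT knockdown (SE 0.496, edgeR adjusted p = 0.229). They were -1.89 for control differentiation (SE 0.463, edgeR adjusted p = 0.08) and -2.85 for knockdown differentiation (SE 0.487, edgeR adjusted p = 0.0531). The last passed with DESeq2 size factors (edgeR adjusted p = 0.0442) and with total library size (0.0477). DESeq2 with the batch term called the MT knockdown and both differentiation changes lower (adjusted p = 0.000578, 9.99e-09 and 3.24e-18). Within pairs, knockdown minus control was 0.09 for replicate 1 and -0.90 for replicate 2, so the pairs did not share a direction.

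Mstn, which encodes the muscle growth inhibitor myostatin, was at the detection limit. It had 0 counts in both MB control libraries, in MB knockdown replicate 1 and in MT knockdown, 3 counts in MB knockdown replicate 2 and 2 counts in MT control. The limit that 3 counts set was 0.0602 to 0.0828 CPM. No fold is given, because every library was at or under it.

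The antagonist gene Fst showed the widest range of the 10. It was at 9.12 and 1.36 CPM in MB control, 7.41 and 0.627 in MB knockdown, then 185 for MT control and 8.7 for MT knockdown. The counts behind these values were 377, 54, 351, 27, 8946 and 337. MT control was the only library above 9.12 CPM, and MT knockdown lay inside the range of the MB libraries. Fst fell in MT knockdown with a log2 change of -4.41 (SE 0.206, edgeR adjusted p = 2.75e-06). It rose during control differentiation by 4.25 (SE 0.193, edgeR adjusted p = 8.19e-07), with 4.34 against the marked and 7.08 against the unmarked MB control library. In knockdown cells the change was 0.32 (SE 0.195, edgeR adjusted p = 0.237), with 0.23 against the marked and 3.8 against the unmarked library.

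In MB the knockdown change of Fst was -0.49 (SE 0.176, edgeR adjusted p = 0.201), or -0.30 and -1.12 in the pairs. Between replicates the gene differed by more than this, since replicate 2 was lower than replicate 1 by -2.74 in control and -3.57 in knockdown cells on the log2 scale. Per exon length, using GENCODE vM21 lengths, Fst counts were 0.162 and 0.0611 of those of Inhba in MB control and 0.124 and 0.0526 in MB knockdown. The ratio was 10.2 in MT control and 1.22 in MT knockdown, so Fst exceeded Inhba per length in both MT libraries and in no MB library. Against Inhbb, the gene for the activin beta B subunit, Fst was higher in MT control only. In CPM per kilobase of exon, Fst and Inhbb were at 40.2 and 18 in MT control and at 1.9 and 5.89 in MT knockdown. In GENCODE vM21 an opposite-strand gene model shares 2.51% of the exon bases of Fst, and others share 2.14% of Tgfb2 and 4.82% and 7.6% of Tgfb3. The labels do not say whether counting used the strand, so reads of such partners cannot be told apart. Changes in Myog and in the summed myoblast markers ran beside those of Fst in MT, but not between the MB replicates. Replicate 2 had more Myog than replicate 1 (33.8 against 1.28 CPM in control, 14.3 against 0.676 in knockdown). Its marker sums were also higher (1027 against 558 and 1158 against 428), while its Fst was lower. The part of these changes in the Fst result was not tested. Singly, Myod1, Des, Cdh15 and Chrna1 were lower in MT knockdown than in MT control. Myf5 ran the other way, at 35.8 CPM in MT control and 77.1 in MT knockdown, and Msc was at 0.0619 and 0.0775.

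**Figure D2:**
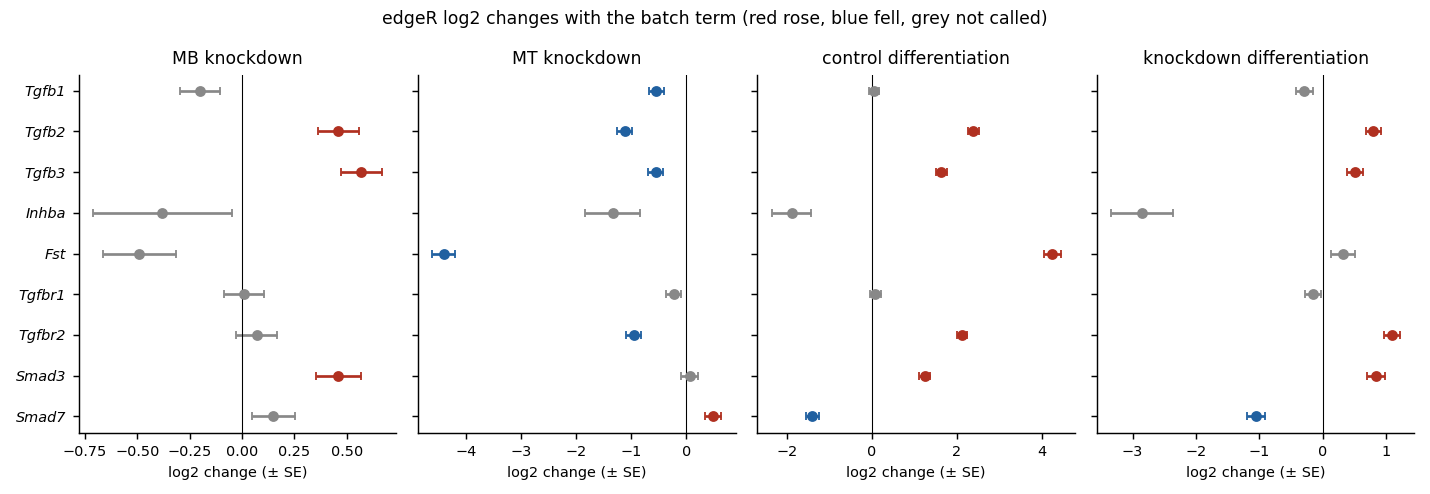
Log2 change with its SE (horizontal axis, own scale per panel) of the 9 genes that passed the low-count filter, in 4 comparisons, from the edgeR fit with the batch term. Red marks genes that rose, blue genes that fell and grey genes that were not called. In control differentiation 5 genes rose and 1 fell, and in MT knockdown 1 rose and 5 fell.

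Of the receptor genes, Tgfbr1, for the type I receptor kinase ALK5, was the steadiest member. It stood at 39.4 and 39.4 CPM in MB control, 38.1 and 41.4 in MB knockdown, with 40.9 for MT control and 34.8 for MT knockdown. MT knockdown was the lowest library and the other 5 lay between 38.1 and 41.4, with a coefficient of variation of 6.09% over the 6. No comparison called it, and the log2 changes with the batch term ran from -0.23 in MT knockdown (SE 0.135, edgeR adjusted p = 0.267) to 0.08 in control differentiation (SE 0.125, edgeR adjusted p = 0.622).

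Tgfbr2 encodes the type II receptor that binds the ligand first. Its level was 54.1 and 113 CPM in MB control, 52.9 and 128 in MB knockdown, then 228 for MT control and 117 for MT knockdown. Replicate 2 was about as high as MT knockdown in both MB groups, replicate 1 was lower, and MT control stood alone. The MB knockdown change was 0.07 (SE 0.098, edgeR adjusted p = 0.777), with -0.03 and 0.17 in the pairs. In MT the gene fell with a log2 change of -0.96 (SE 0.138, edgeR adjusted p = 0.00101).

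With differentiation Tgfbr2 rose by 2.12 in control cells (SE 0.127, edgeR adjusted p = 7.69e-07), with 2.07 against the marked and 1.01 against the unmarked library. In knockdown cells it rose by 1.09 (SE 0.128, edgeR adjusted p = 0.000202). That call too rests on the marked MB library, since the difference was 1.15 against it and -0.13 against the unmarked one.

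Smad3, for the transducer that carries TGF beta and activin signals to DNA, was at 59.3 and 87.1 CPM in MB control and 91.6 and 106 in MB knockdown. It was at 149 CPM in MT control and 155 in MT knockdown. Both MT libraries were above all MB libraries, and both MB knockdown libraries were above both MB controls. It rose in MB knockdown by 0.46 (SE 0.107, edgeR adjusted p = 0.0465; 0.63 and 0.29 in the pairs). That call was lost with DESeq2 size factors (edgeR adjusted p = 0.063), with total library size (edgeR, 0.0587) and in DESeq2 with the batch term (0.107). In MT the change was 0.06 (SE 0.149, edgeR adjusted p = 0.826). Smad3 rose by 1.24 in control differentiation (SE 0.14, edgeR adjusted p = 7.92e-05) and by 0.84 in knockdown differentiation (SE 0.137, edgeR adjusted p = 0.00159). The differences against the marked and unmarked libraries were 1.32 and 0.77 in control and 0.76 and 0.54 in knockdown cells.

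Smad7, the inhibitory SMAD gene, ran the other way. It was at 35.7 and 20 CPM in MB control, 41.4 and 21.1 in MB knockdown, with 13.9 for MT control and 19.3 for MT knockdown. Replicate 1 was about as far above replicate 2 in control as in knockdown, and MT control was the lowest library. The gene fell during control differentiation (log2 change -1.40, SE 0.144, edgeR adjusted p = 3.45e-05) and knockdown differentiation (-1.06, SE 0.141, edgeR adjusted p = 0.000425). The differences against the marked and unmarked libraries were -1.36 and -0.53 in control and -1.10 and -0.12 in knockdown cells. It rose in MT knockdown by 0.48 (SE 0.151, edgeR adjusted p = 0.048), a call lost with DESeq2 size factors (edgeR adjusted p = 0.0713) and in DESeq2 with the batch term (0.46). The MB change was 0.15 (SE 0.104, edgeR adjusted p = 0.534). Per exon length, Smad7 counts were 0.738 and 0.282 of those of Smad3 in MB control and 0.554 and 0.242 in MB knockdown. They were 0.114 in MT control and 0.153 in MT knockdown.

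**Figure D3:**
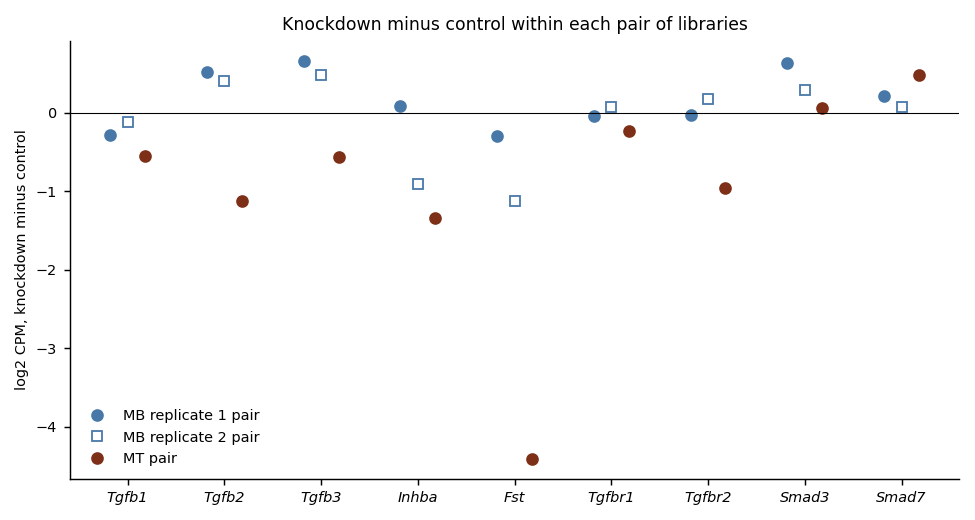
Log2 CPM of knockdown minus control (vertical axis) for 9 genes (horizontal axis) in the MB replicate 1 pair, the MB replicate 2 pair and the MT pair, 1 point per pair. Tgfb2 and Tgfb3 lie above 0 in both MB pairs and below 0 in the MT pair, and Fst lies lowest, at -4.41, in the MT pair.

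Counted over the axis, 3 of the 9 tested genes rose and 0 fell in MB knockdown, where 2.5% of all tested genes rose and 1.34% fell (3.84% in either direction). Their median log2 change was 0.07, against -0.01 over all genes. In MT knockdown 1 rose and 5 fell, beside 9.09% and 11.2% of all genes (20.3% either way), with medians of -0.56 and 0.02. Of all MT calls 44.8% were higher with TMM and 62.7% with total library size, which moved the median of all genes in that comparison from 0.018 to 0.155. In control differentiation 5 rose and 1 fell, beside 22.3% and 22.6% of all genes (44.9% either way), with medians of 1.24 and -0.01. In knockdown differentiation 4 rose and 1 fell, beside 16.6% and 16.5% of all genes (33.1% either way), with medians of 0.32 and 0.02. DESeq2 with the batch term called 2% of all genes in MB knockdown, 9.36% in MT knockdown, 26.1% in control differentiation, 17.7% in knockdown differentiation and 5.82% in the interaction. It called 1 of the 9 genes in MB knockdown (Tgfb3) and 5 in MT knockdown (Tgfb2, Tgfb3, Inhba, Fst and Tgfbr2). Both knockdown comparisons share libraries with both differentiation comparisons.

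The difference between the MT and the MB knockdown effect was tested as an interaction. It was called lower for 4 of the 9 genes and higher for 0, beside 6.63% and 3.82% of all genes (10.5% either way). The 4 were Fst (log2 difference -3.92, SE 0.263, edgeR adjusted p = 5.58e-05), Tgfb2 (-1.59, SE 0.165, edgeR adjusted p = 0.000252), Tgfb3 (-1.13, SE 0.166, edgeR adjusted p = 0.00202) and Tgfbr2 (-1.03, SE 0.169, edgeR adjusted p = 0.0038). In the fit without the batch term, which allows it, leaving out 1 library moved the Fst difference from -4.03 to -1.35 (without MB knockdown replicate 1). That of Tgfbr2 moved from -1.07 to -0.63 without MB control replicate 1, -1.71 without MB control replicate 2 and -0.30 without MB knockdown replicate 2. Of all interaction calls 36.6% were higher with TMM and 52.1% with total library size. For Tgfb2 and Tgfb3 the knockdown calls had opposite directions in MB and MT. Smad3 (-0.40, edgeR adjusted p = 0.214), Smad7 (0.34, edgeR adjusted p = 0.297) and Tgfb1 (-0.34, edgeR adjusted p = 0.242) did not pass.

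Scaled by exon length, as CPM per kilobase, the order of the levels differed between MB control and MT control, and also between the MB control replicates. In MB control Tgfb3 was at 14.2 and 15.4 and Smad3 at 10.7 and 15.7, so Tgfb3 led in replicate 1 and Smad3 in replicate 2. The range of Smad3 overlapped those of Tgfbr2 (6.61 and 13.9), Tgfb1 (10.4 and 9.29) and Inhba (12.3 and 4.86). Smad7 (7.89 and 4.43), Tgfbr1 (6.03 and 6.04) and Tgfb2 (3.45 and 6.58) overlapped each other and the range of Inhba. Smad7 also overlapped Tgfbr2, and Fst was below all of these, at 1.99 and 0.297. In MT control, with no replicate, Tgfb3 was at 45.9 and Fst at 40.2 CPM per kilobase, then Tgfbr2 at 27.8, Smad3 at 26.8 and Tgfb2 at 18.5. Tgfb1 followed at 10.5, Tgfbr1 at 6.25, Inhba at 3.96 and Smad7 at 3.06. In MT knockdown Tgfb3 (31.1) and Smad3 (27.9) led, and Fst (1.9) and Inhba (1.56) were lowest above Mstn.

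The other genes of the pathway were described from fixed lists, chosen with earlier results of these data known. Of the other ligand genes 7 were matched (Gdf1 was not), and 4 passed the filter. In control differentiation 3 of these 4 rose and 0 fell, beside 22.3% and 22.6% of all genes, and in MT knockdown 0 rose and 3 fell, beside 9.09% and 11.2%. Inhbb, for the activin beta B subunit, was at 17.8 and 9.89 CPM in MB control, 22.3 and 10.3 in MB knockdown, then 76.8 for MT control and 25.1 for MT knockdown. Its MT control library stood alone, and it rose by 2.04 in control differentiation (SE 0.14, edgeR adjusted p = 2e-06) and fell in MT knockdown (-1.61, SE 0.151, edgeR adjusted p = 6.12e-05). Per exon length Inhbb was at 0.34 and 0.479 of Inhba in MB control and 4.56 times it in MT control. Inha, for the inhibin alpha subunit, rose by 2.82 in control differentiation and fell in MT knockdown (-2.01), with levels of 0.387 to 3.76 CPM. In the interaction Inhbb (-1.82) and Inha (-2.60) were called lower and 0 higher, beside 6.63% and 3.82%. Gdf11, a close relative of myostatin, was at 37.6 and 37.3 CPM in MB control, 37 and 41.8 in MB knockdown, with 52.1 for MT control and 37.6 for MT knockdown, and it rose by 0.52 in control differentiation and fell in MT knockdown (-0.47).

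Of 15 genes for latency and ligand binding 14 were tested. In MB knockdown 0 rose and 1 fell (2.5% and 1.34% of all genes), the latent TGF beta binding protein gene Ltbp1 (-0.40, edgeR adjusted p = 0.0409). In MT knockdown 0 rose and 5 fell (9.09% and 11.2% of all genes), with a median of -0.42 against 0.02. The 4 with the smallest p were Dcn, for the TGF beta binding proteoglycan decorin (-1.27), Fbn1, for the microfibril protein fibrillin (-1.12), Lrrc32, for a cell surface anchor of latent TGF beta (-1.02), and Fstl3, a follistatin relative (-1.04). In control differentiation 7 rose and 1 fell, where 44.9% of all genes were called, led by Dcn (7.97), Fbn1 (2.36), Ltbp4 (1.27) and the falling Ltbp1 (-1.13). Dcn was at 0.871 and 28.5 CPM in MB control and 256 in MT control, so its difference was 8.20 against the marked library and 3.17 against the unmarked one. In knockdown differentiation 5 rose and 2 fell, where 33.1% of all genes were called, led by Dcn (6.38), Fbn1 (1.10), Lrrc32 (-1.18) and Ltbp1 (-0.57). Lrrc32 stood at 27.3 and 1.07 CPM in MB knockdown and 11.6 in MT knockdown, so it was lower than the marked library by -1.24 and higher than the unmarked one by 3.44 on the log2 scale. In the interaction 0 of the 14 were higher and 5 lower (3.82% and 6.63% of all genes), led by Dcn (-1.59), Fbn1 (-1.26), Fstl3 (-1.30) and Ltbp4 (-0.89).

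Of 9 receptor and co-receptor genes 7 were tested, and edgeR called 0 in either knockdown comparison (3.84% of all genes in MB and 20.3% in MT), with 2 at an unadjusted p under 0.05 in each. In control differentiation, with 44.9% of all genes called, Acvr2a, for an activin and myostatin type II receptor, was the only one of the 7 called (0.89, SE 0.132, edgeR adjusted p = 0.000412). In knockdown differentiation, beside 16.6% of all genes that rose and 16.5% that fell, 1 rose, Acvr2a (1.09), and 3 fell, namely Acvr2b (-1.60), the pseudoreceptor gene Bambi (-1.22) and Acvr1b (-0.49, edgeR adjusted p = 0.0498). Acvr2b and Bambi were at low levels, at or under 1.14 and 2.76 CPM. Acvr2a was at 24.6 and 45 CPM in MB control, 24.5 and 53.4 in MB knockdown, then 43.4 for MT control and 54.5 for MT knockdown. Against the unmarked libraries its differentiation differences were -0.05 and 0.03, and that of Acvr1b was -0.05, so these calls rest on the marked libraries. In the interaction edgeR called 0 of the 7, with 1 at an unadjusted p under 0.05.

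Among 14 SMAD genes and regulators, Smad6, for the other inhibitory SMAD, was the only one called in either knockdown comparison, where 3.84% (MB) and 20.3% (MT) of all genes were called. It was at 27.1 and 6.79 CPM in MB control, 38.1 and 11.1 in MB knockdown, with 4.67 for MT control and 10.6 for MT knockdown. The knockdown library was above the control in each pair, and it rose by 0.59 in MB (edgeR adjusted p = 0.0307) and by 1.19 in MT (edgeR adjusted p = 0.00198). In control differentiation 2 of the 14 rose and 8 fell, beside 22.3% and 22.6% of all genes, with a median of -0.35 against -0.01. The leading ones were Smad6 (-2.49), the ubiquitin ligase genes Nedd4l (-1.33) and Smurf1 (-0.66), and the SMAD corepressor gene Ski (0.49). In knockdown differentiation 1 rose, Tgif1 (0.87), and 5 fell, beside 16.6% and 16.5% of all genes, led by Smad6 (-1.89), Nedd4l (-0.76) and Skil (-0.46). Against the unmarked MB libraries the Smad6 differences were -0.54 in control and -0.07 in knockdown cells, and that of Smurf1 in control cells was 0.10, opposite in sign to its call. In the interaction edgeR called 0 of the 14, with 3 at an unadjusted p under 0.05.

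Of 21 genes often raised by TGF beta in other cells, 20 were tested. In MB knockdown 7 rose and 0 fell, beside 2.5% and 1.34% of all genes, with a median of 0.34 against -0.01. The 4 with the smallest p were Cnn1, a calponin (1.15, edgeR adjusted p = 0.000407), Postn, a matricellular protein (1.36), Tagln, an actin-binding protein (1.41), and Col1a1, a fibrillar collagen chain (0.72). In MT knockdown 4 rose and 6 fell, beside 9.09% and 11.2%, with a median of -0.27 against 0.02. Cnn1 (3.34) and the transcription factor gene Snai2 (0.89) rose, while the transcription factor genes Bhlhe40 (-1.09) and Snai1 (-0.96) fell. In control differentiation 11 rose and 5 fell, beside 22.3% and 22.6%, with Cnn1 falling (-2.87) and Postn (3.53), Bhlhe40 (1.74) and the fibronectin gene Fn1 (1.91) rising. In knockdown differentiation 4 rose and 4 fell, beside 16.6% and 16.5%, among them Snai1 (-1.53), Timp1 (-1.41) and Postn (1.75). In MB knockdown the called genes of this list all moved up, and in the other comparisons they were split. Against the unmarked MB library the differentiation difference was 0.01 for Cnn1 in control cells and -0.18 for Snai1 in knockdown cells, so both calls rest on the marked libraries. In the interaction 3 of the 20 were higher and 8 lower, beside 3.82% and 6.63%, with Cnn1 (2.19), Postn (-1.78), Col1a1 (-1.22) and Snai1 (-1.06) leading.

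**Figure D4:**
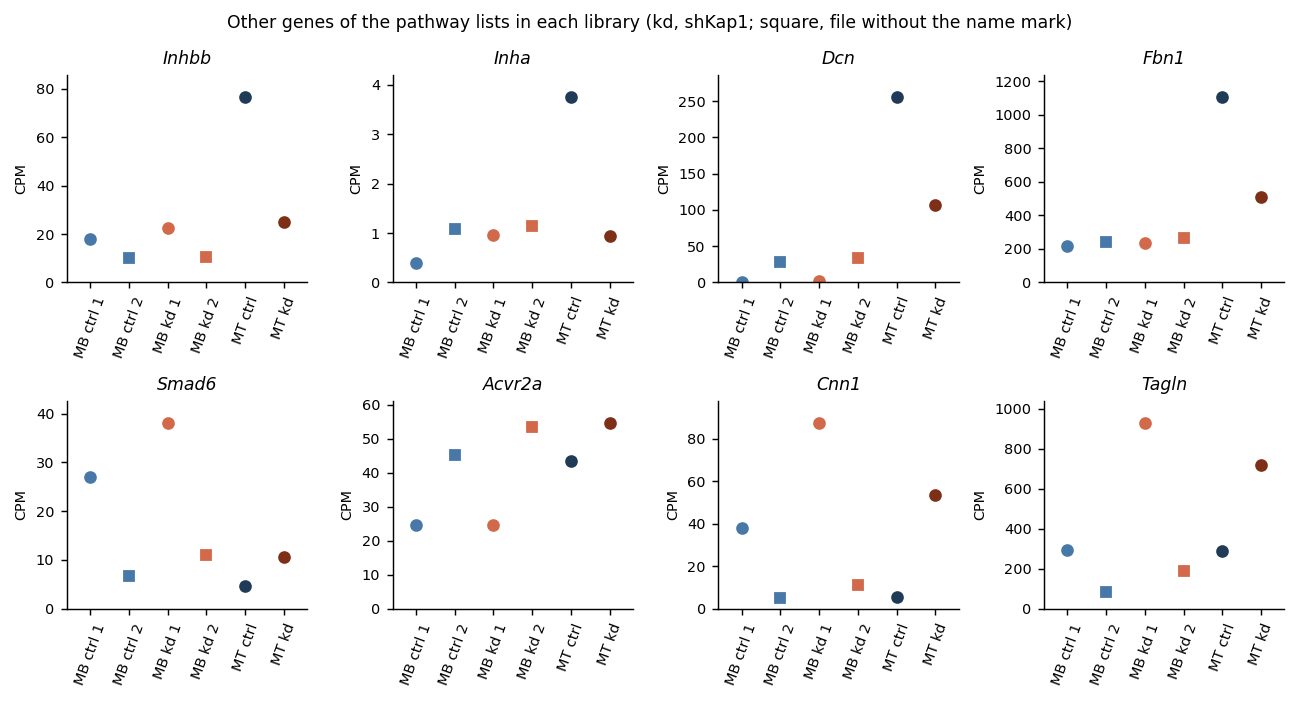
Level in CPM (vertical axis, linear from 0, own scale per gene) of 8 other pathway genes in each of the 6 libraries, 1 point per library, with squares for the files that lack the name mark. Inhbb, Inha, Dcn and Fbn1 are highest in MT control, and Smad6 and Cnn1 are higher in MT knockdown than in MT control.

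For each member at 1 CPM or more on average, the genes with the most similar pattern of log2(CPM + 1) over the 6 libraries were listed among 2642 candidate genes with an SD of at least 0.5 on that scale. The libraries share their batch and cell state, so these are descriptions. Tgfbr2 was most like the imprinted noncoding RNA gene H19 (Pearson r = 0.993), Cmklr1 (0.988) and Tspan9 (0.988). For Tgfb2 the closest were Mmp15, a membrane metalloproteinase (0.991), Dnajb5 (0.991) and the fast fibre actinin gene Actn3 (0.989). Tgfb3 was closest to Adamts2, a procollagen protease (0.998), the membrane repair gene Dysf (0.997) and Zfp36l1 (0.996). For Inhba the similar genes included Myc (0.986) and Hsph1 (0.969). Fst was nearest to Mir5125 (0.996), Vamp5 (0.991) and Cers1 (0.989). Smad3 was nearest to Spon2 (0.996), Kdm5b (0.995) and Tg (0.992), and Smad7 to Nxpe3 (0.997), Gprin3 (0.996) and Syk (0.993). The nearly level Tgfb1 was closest to Klf10 (0.986), Lamc1 (0.98) and Ldlrad3 (0.958), and Tgfbr1 to Ago2 (0.963), E2f8 (0.959) and Adcy9 (0.931). They had 3 and 2 candidates above 0.95, against 80 for Tgfb2 and 85 for Tgfbr2. Their own SDs (0.2 and 0.09) lay below the candidate minimum of 0.5. Level genes were thus not among the candidates, and these counts cannot be compared between members.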

How the data were processed

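The authors deposited 1 table of raw read counts per library, with 37991 Ensembl genes, and named TopHat2 2.0.11, HTSeq and mm9 in the submitters' processing notes. Their 5 closing summary lines were left out (5.18 to 8.07% of reads had no feature). Symbols were matched for 32919 genes, which hold 99.04% of counts. Counts were scaled by TMM and fitted with edgeR 4.0.16 (quasi-likelihood, robust, R 4.3.3) over all 6 libraries, with Benjamini-Hochberg adjustment over 16472 genes kept by filterByExpr. A second fit added the batch from the file names. DESeq2 1.42.0, other scalings, no filter and left-out libraries were alternatives. Depth limits precision to 0.0602 to 0.0828 CPM (3 counts, counting error only).

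The 10 genes and the pathway lists were chosen with earlier results of these data known. Named genes were the 10, Trim28, Myog and Tagln, up to 4 called genes per list and comparison with the smallest p, and the 3 most similar genes per member. Of the genes this rule names, 2 are not reported here. Exon lengths came from GENCODE vM21 and promoters from RefSeq (GRCm38.p6), and no coordinate was carried over from mm9. Among the other markers, macrophage genes summed to 1.87 to 4.64 CPM, adipocyte genes to 3.76 to 28.9 (Adipoq at 0 in all) and fibroblast genes to 3400 to 9475, nearly all Col1a1. Of the adipocyte genes, Pparg was at 3.12 to 23.1 CPM, Fabp4 at 0.232 to 11.4 and Plin1 at or under 0.0464. Of the fibroblast genes, Pdgfra was at 17.2 to 64.4 CPM, and Dpt and Lum were at or under 1.55.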

Additional observations from a re-analysis of the deposited data

Results flagged for a closer look

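For 4 genes the knockdown effect in MT differed from that in MB by the interaction test with the batch term, with 1 library per MT group. The MT minus MB difference in log2 change was -3.92 for Fst, -1.59 for Tgfb2, -1.13 for Tgfb3 and -1.03 for Tgfbr2. Leaving out 1 MB library, in the fit without the batch term, moved Fst to between -5.97 and -1.35 and Tgfbr2 to between -1.71 and -0.30. Without the batch term edgeR called none of the 4 (adjusted p = 1, 0.988, 0.927 and 1), while DESeq2 without it called Tgfb3 (-1.17, adjusted p = 0.0182).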

How the results depend on the processing

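Without the batch term, which here is also the replicate block, edgeR called 0 genes in each comparison, and with it 632 for MB knockdown, 3344 for MT knockdown, 7398 for control differentiation, 5446 for knockdown differentiation and 1722 for the interaction. The 24 of 45 member tests called with the block were not called in the same edgeR fit without it. Other fits without the block called 4 of them, namely Tgfb3 in control differentiation with no low-count filter (1.62, edgeR adjusted p = 0.0248) and, in DESeq2, Tgfb2 (1.91, adjusted p = 0.00647), Tgfb3 (1.67, 3.54e-12) and Smad3 (1.06, 0.0211) in control differentiation and Tgfb3 in the interaction (-1.17, 0.0182). The replicate numbers are not shown to pair the samples, since there are only 2 pairs. The gap between replicate 2 and replicate 1 in control cells correlated with that in knockdown cells across 16472 genes (r = 0.762, rho = 0.681), and genes are not independent. DESeq2 called 52, 368, 2384, 843 and 166 genes without the block, in the same order, and 329, 1542, 4291, 2918 and 958 with it. Without the block, control differentiation gave 78 calls with DESeq2 size factors, 582 with no low-count filter and 0 to 141 when 1 MB library was left out, with 136 without MB knockdown replicate 1 and 141 without replicate 2. Knockdown differentiation gave 2 with no filter. With the block, MB knockdown gave 1046 with no filter.

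Leaving out 1 MB library, without the block, turned the sign of some changes, among them 3 that were called with the block (Tgfb2 in MB knockdown, and Tgfb2 and Tgfbr2 in knockdown differentiation). In MB knockdown the log2 ranges were -0.02 to 0.98 for Tgfb2, -1.73 to 0.69 for Inhba (0.61 without knockdown replicate 2), -3.06 to 1.56 for Fst (0.50), -0.05 to 0.07 for Tgfbr1, -0.66 to 0.74 for Tgfbr2 (-0.33 without control replicate 1) and -0.40 to 0.64 for Smad7 (-0.19 without control replicate 2). In knockdown differentiation they were -0.04 to 0.77 for Tgfb2 and -0.12 to 1.15 for Tgfbr2. In the interaction they were -2.03 to 0.38 for Inhba and -0.16 to 0.89 for Smad7 (-0.09 without knockdown replicate 2). Of other changes called with the block, Smad3 in MB knockdown moved from 0.44 to 0.19 without control replicate 1 and 0.74 without control replicate 2. Smad7 moved from -1.01 to -0.53 in control differentiation without control replicate 1, and from -0.69 to -0.12 and -1.10 in knockdown differentiation without knockdown replicates 1 and 2. With the block, leaving out a library could not be fitted, as no residual degree of freedom remained. Each member result with the block was refitted under the other scalings, no filter and DESeq2. Counted as pairs of a result and a setting, 166 kept their side of the threshold, 9 lost a call and 5 gained one, all in the same direction. The cause was not tested.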

Other observations

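Some pathway genes differed more between the MB replicates than between the hairpins. Ltbp2, for a latent TGF beta binding protein, was at 335 and 45.2 CPM in MB control, 257 and 17.8 in MB knockdown, with 297 for MT control and 112 for MT knockdown. Per exon length Tgfb3 exceeded Tgfb1 by 1.37 and 1.65 times in MB control, 2.65 and 2.52 times in MB knockdown, and 4.38 and 4.34 times in MT control and MT knockdown.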
